A study of Zea mays with 6 samples.

Results

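Pathogenesis-related (PR) proteins are a set of unrelated protein families that plants make in quantity when a pathogen is perceived. PR1 proteins are small secreted proteins of the CAP superfamily, and in Arabidopsis PR1 is the usual marker of salicylic acid signalling. PR5 proteins are thaumatin-like proteins, several of which inhibit fungal growth, and PR10 proteins are small intracellular proteins related to the birch pollen allergen Bet v I, some of which have ribonuclease activity. Heterotrimeric G proteins, built of α, β and γ subunits, pass signals from receptors at the cell surface into the cell and take part in plant immunity as well as in growth.

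The genes described here are PR1 (Zm00001d018738), PR5 (Zm00001d031158) and the PR10 genes Zm00001d028815 and Zm00001d028816, which makes 4 of the 44146 gene identifiers measured. They were picked by identifier as markers of induced defence, with their values in knockout and wild type already known. Every difference between the genotypes in these 4 genes is therefore given as a description. Where a fit across all genes also calls them, nothing is read from that call. The gene names come from that choice. The deposited tables hold identifiers alone, and 0 of the 44146 matched the RefSeq gene table used here, so no sequence of these genes is shown.

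RNA was sequenced from maize (Zea mays) seedlings at the 3-leaf stage, with the roots removed. The tested seedlings carried a knockout of the G protein β subunit (genotype GBetaKO, titled KO1, 3 libraries) and were compared with wild-type seedlings (genotype WT, 3 libraries). All were grown under normal conditions and left untreated, so no pathogen or elicitor was applied on purpose. The titles name a single knockout line, so loss of Gβ and other differences of that line cannot be told apart. The kind of allele, the genetic background and the number of plants in a library are not stated in the labels. The replicates are described as biological.

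Levels are FPKM values, which are fragments per kilobase of gene scaled by a factor for each library. The scaling by length allows a comparison between genes. A comparison between libraries rests on the deposited factors, and the summed FPKM ranged from 531320 (knockout replicate 1) to 857831 (wild-type replicate 3). Reads worked back from the FPKM steps numbered between 14757902 and 17665944 per library. On a principal component analysis of log2(FPKM + 1), knockout replicate 2 and wild-type replicate 3 lay apart from the other libraries of their genotypes on the second component, which held 20.1% of the variance. The results below are therefore also given without these libraries where that changes them. The level of the targeted Gβ gene and of shoot marker genes was not analysed here, because the identifiers are not paired with names, so the genotype and tissue labels were not checked in this way.

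All 4 PR genes were far more abundant in the knockout seedlings, where PR1 and PR5 ranked among the most abundant transcripts of the shoot. PR1 had 545, 1824 and 653 FPKM in knockout replicates 1, 2 and 3, against 30.3, 25.7 and 9.48 FPKM in wild-type replicates 1, 2 and 3. Its lowest knockout library was 18.0 times its highest wild-type library. The knockout mean was 1007 ± 709 FPKM and the wild-type mean 21.8 ± 10.9 FPKM (SD, n = 3 each), a ratio of 46.2, which was 27.5 without knockout replicate 2 and 21.4 without wild-type replicate 3 as well. The gene was thus clearly transcribed in wild-type shoots too, where it ranked between 4233 and 11402 among the 44146 identifiers by FPKM, but it ranked between 18 and 57 in the knockout libraries. On the log2(FPKM + 1) scale the difference, knockout minus wild type, was 5.40 ± 0.61 (SE), and 4.37 ± 0.15 without knockout replicate 2 and wild-type replicate 3 (n = 2 each). These libraries were left out because they lay apart, so the smaller SE follows from that choice and does not mean a more precise value. Because whole shoots were sequenced, a larger number of cells that contain a transcript and a larger amount of it per cell cannot be told apart, here and for the other genes.

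PR5, the thaumatin-like gene, was weakly expressed in the wild type and became the most abundant of the 4 genes in the knockout. It had 835, 2277 and 893 FPKM in knockout replicates 1, 2 and 3, against 1.89, 2.73 and 2.96 FPKM in wild-type replicates 1, 2 and 3. The groups were 282-fold apart at their nearest libraries. In wild-type shoots PR5 was read 57 times in the 3 libraries together, and it ranked between 18162 and 19912 among all identifiers. In the knockout libraries it had 35577 reads and ranked between 9 and 33. The ratio of the mean levels, 1335 ± 816 over 2.53 ± 0.56 FPKM (SD, n = 3 each), was 528, and the log2 difference was 8.42 ± 0.41 (SE). Without knockout replicate 2 the ratio was 342 and the log2 difference 7.95.

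The PR10 genes carry consecutive identifiers, and they differed from each other mainly in the wild type. Zm00001d028815 had 134, 372 and 138 FPKM in knockout replicates 1, 2 and 3, against 14.6, 14.6 and 3.26 FPKM in wild-type replicates 1, 2 and 3. Its lowest knockout library was 9.16 times its highest wild-type library. Its mean was 215 ± 137 FPKM in the knockout and 10.8 ± 6.57 FPKM in the wild type (SD, n = 3 each), a ratio of 19.8, the smallest of the 4 genes. This ratio was 12.5 without knockout replicate 2 and 9.29 without wild-type replicate 3 as well. The log2 difference was 4.24 ± 0.64 (SE). It was 3.61 without wild-type replicate 3, where the gene was lowest, and 3.13 ± 0.11 without both libraries that lay apart (n = 2 each). The limit given for the SE of PR1 holds here too.

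Zm00001d028816 had 67.7, 149 and 82.5 FPKM in knockout replicates 1, 2 and 3, against 0, 0.145 and 0.247 FPKM in wild-type replicates 1, 2 and 3. These wild-type values rest on 0, 2 and 3 reads, and the 0 of replicate 1 allows a level of up to 0.237 FPKM (3 reads). Wild-type levels of this gene were thus at the limit of detection in every library. The 4599 knockout reads against 5 wild-type reads correspond to a scaled ratio of 744, for which counting error alone gives 318 to 2292 (95% exact binomial interval). The reads of a genotype were pooled for this interval, which leaves out the spread between libraries. The log2 difference of 6.40 ± 0.30 (SE) understates this ratio, because adding 1 FPKM lifts the wild-type level well above the values measured. The ratio of the mean levels was 762. It was 574 without knockout replicate 2, 1374 without wild-type replicate 3 and 1036 without both, with few wild-type reads throughout. Genes that are near-identical copies can share reads, and for these neighbouring PR10 genes the authors' counting could have moved reads from one to the other.

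**Figure D1:**
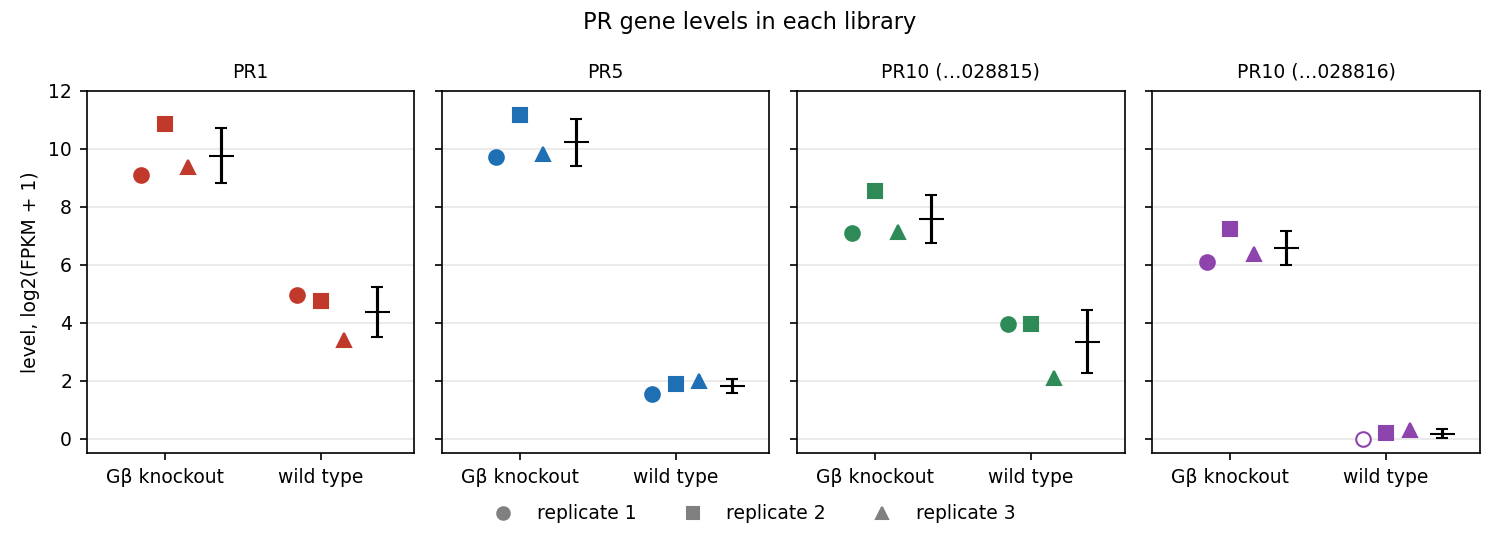
Level of each PR gene, as log2(FPKM + 1), in the 3 Gβ knockout libraries (left in each panel) and the 3 wild-type libraries (right), with a marker shape for each replicate, an open marker for a library without reads, and mean ± SD in black. The knockout libraries lie above the wild-type libraries in all 4 panels, from 134 to 372 against 3.26 to 14.6 FPKM for Zm00001d028815 up to 835 to 2277 against 1.89 to 2.96 FPKM for PR5.

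Compared with the other genes, the differences of the 4 PR genes lay at the upper end. A fit across the 23232 genes that reached 1 FPKM in 3 or more of the 6 libraries (limma on log2(FPKM + 1), Benjamini-Hochberg adjusted p below 0.05) called 31.2% of the genes, 15.2% as higher in the knockout and 16.0% as lower. All 4 PR genes passed the filter, Zm00001d028816 through its knockout libraries alone, and 4 of 4 were called higher. In 25.0% of the tested genes every knockout library lay above every wild-type library, as in the 4 PR genes. These counts describe genes picked for this contrast, and nothing is read from them. When the 23232 genes were ordered by their log2 difference, PR5 came at rank 2, Zm00001d028816 at rank 12, PR1 at rank 49 and Zm00001d028815 at rank 133. The median difference was 5.90 over the 4 genes and 0.02 over all tested genes. Scaling each library by its total of worked-back reads raised the median of all genes to 0.21, and relative to that median the PR genes kept differences of 5.39 (PR1), 8.39 (PR5), 4.22 (Zm00001d028815) and 6.32 (Zm00001d028816). With that scaling 61.6% of the called genes were higher in the knockout, against 48.8% with the deposited scaling.

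**Figure D2:**
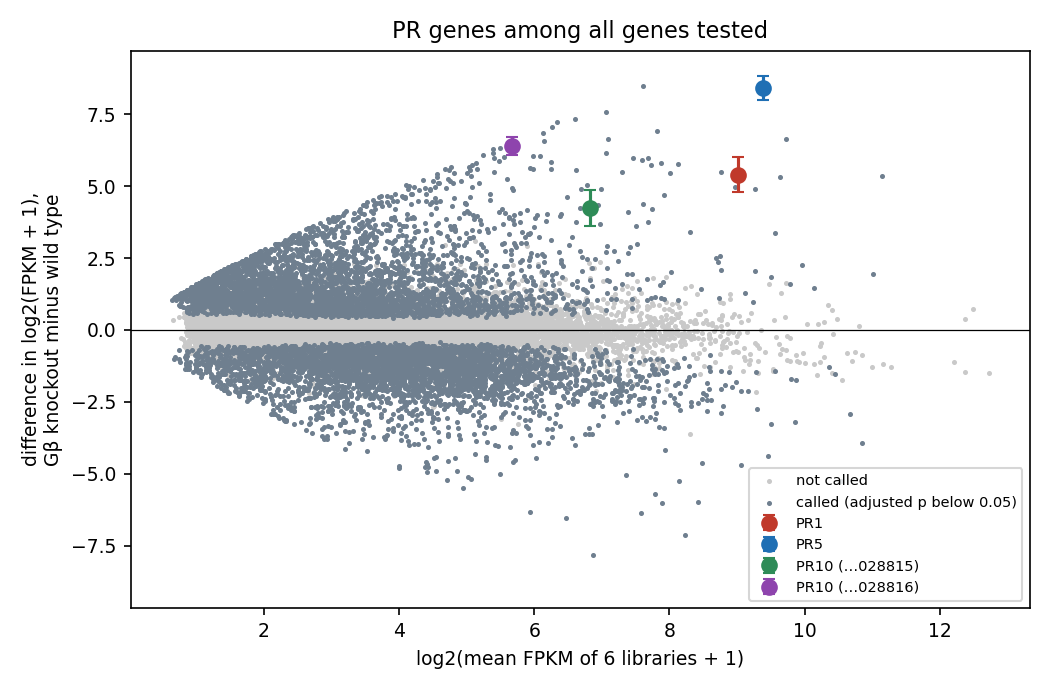
Difference in log2(FPKM + 1), knockout minus wild type, of each of the 23232 tested genes against log2 of its mean FPKM over the 6 libraries plus 1, with called genes dark, other genes light and the 4 PR genes in colour with their SE. PR5 (8.42) and PR1 (5.40) combine a large difference with a high mean level, whereas Zm00001d028816 (6.40) lies on the upper edge formed by genes with almost no wild-type reads.

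The order of abundance of the 4 genes was not the same in the genotypes. In every knockout library PR5 was highest, followed by PR1, Zm00001d028815 and Zm00001d028816. In every wild-type library PR1 was highest, followed by Zm00001d028815, PR5 and Zm00001d028816. Not all of these neighbours were separated beyond the spread between libraries. In the knockout the ranges of PR5 and PR1 overlapped, as did those of the PR10 genes, while the lowest PR1 library (545 FPKM) lay above the highest library of Zm00001d028815 (372 FPKM). In the wild type the ranges of PR1 and Zm00001d028815 overlapped, and those of Zm00001d028815, PR5 and Zm00001d028816 did not. The gap between Zm00001d028815 and PR5 was narrow. In wild-type replicate 3 they stood at 3.26 and 2.96 FPKM (39 and 21 reads), so their order in that library rests on few reads.

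Across all 3 knockout libraries, ratios taken within a library were steadier than the levels, and among the wild-type libraries those with PR5 were not. The ratio of PR5 to PR1 was 1.53, 1.25 and 1.37 in knockout replicates 1, 2 and 3, against 0.0625, 0.106 and 0.312 in wild-type replicates 1, 2 and 3. PR5 therefore exceeded PR1 in each knockout library, although their ranges overlapped, and stayed below it in each wild-type library. The ratio of PR5 to Zm00001d028815 varied least among the knockout libraries, with 6.22, 6.11 and 6.48, against 0.129, 0.187 and 0.909 in the wild-type libraries. Over the same knockout libraries PR5 itself spanned a 2.73-fold range and Zm00001d028815 a 2.78-fold range. These ranges come mainly from knockout replicate 2. Between replicates 1 and 3 alone PR5 was at 835 and 893 FPKM and PR1 at 545 and 653 FPKM, so there the ratios were not clearly steadier than the levels. PR1 and Zm00001d028815, the genes with the higher wild-type levels, stood at ratios between 4.06 and 4.90 in the knockout and between 1.76 and 2.91 in the wild type. The PR10 genes stood at 1.98, 2.51 and 1.67 (Zm00001d028815 over Zm00001d028816) in knockout replicates 1, 2 and 3, against 101 and 13.2 in wild-type replicates 2 and 3, where the denominator rests on 2 and 3 reads.

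**Figure D3:**
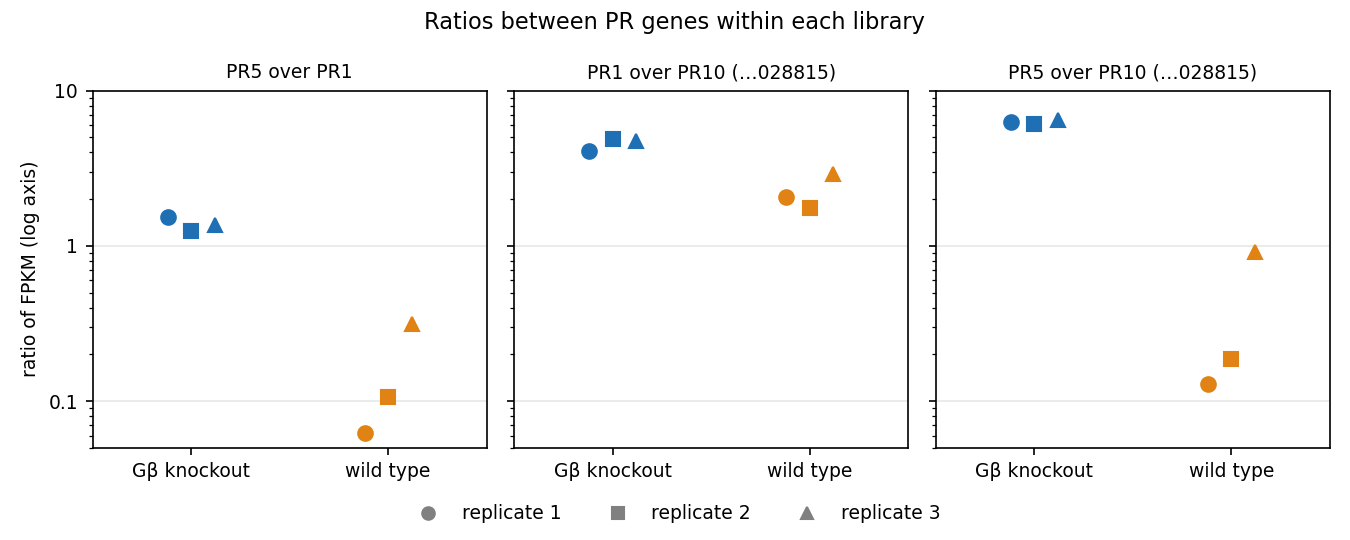
Ratio of FPKM values of PR5 to PR1, PR1 to Zm00001d028815 and PR5 to Zm00001d028815 within each library, on a log axis, for the knockout (left) and the wild type (right), with a marker shape for each replicate. The knockout points lie close together, most of all for PR5 over Zm00001d028815 (6.11 to 6.48), and the wild-type points spread over 0.129 to 0.909 in that panel.

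Knockout replicate 2 was the highest knockout library for all 4 genes. Relative to the mean of the other 2 knockout libraries, on the log2(FPKM + 1) scale, it was higher by 1.61 for PR1, 1.40 for PR5, 1.45 for Zm00001d028815 and 0.98 for Zm00001d028816. The median of all tested genes in the same comparison was 0.03, and a difference as high as that of each gene was reached by 1.67%, 2.84%, 2.55% and 7.23% of the tested genes in the same order. The 4 genes thus stood high together in the library that also lay apart on the second principal component. Knockout replicates 1 and 3 were close to each other, with PR1 at 545 and 653 FPKM and PR5 at 835 and 893 FPKM.

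Among the wild-type libraries PR1 and Zm00001d028815 stood low in the same library. In wild-type replicate 3, PR1 was lower than in the other 2 libraries by a log2 difference of -1.46, and Zm00001d028815 by -1.88. Values as low were reached by 2.98% and 1.49% of the tested genes. PR5 and Zm00001d028816 were slightly higher in that library, by 0.27 and 0.22, values that 34.8% and 37.7% of the tested genes reached or exceeded. PR1 and the more abundant PR10 gene were thus low in the wild-type library that lay apart. With 0, 2 and 3 wild-type reads Zm00001d028816 could not have shown a lower level there. PR5, with 14, 22 and 21 reads, had less room on this scale than PR1 but lay above the floor of 3 reads. Its level could have fallen in replicate 3 and did not. The labels give no harvest time or preparation batch, and the part of such differences in these values was not tested.

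**Figure D4:**
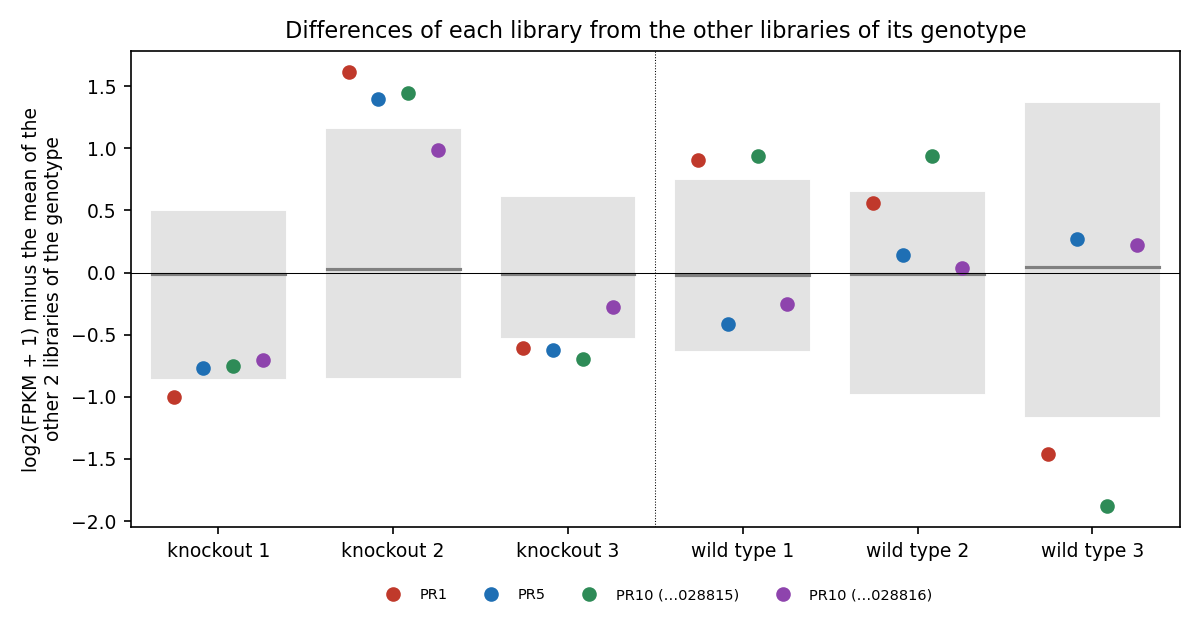
Level of the 4 PR genes in each library minus the mean of the other 2 libraries of its genotype, on the log2(FPKM + 1) scale, with knockout libraries left and wild-type libraries right; grey boxes span the 5th to 95th percentile of all tested genes and the grey line is their median. All 4 genes are high in knockout replicate 2 (0.98 to 1.61). In wild-type replicate 3 PR1 (-1.46) and Zm00001d028815 (-1.88) are low, whereas PR5 (0.27) and Zm00001d028816 (0.22) are not. Zm00001d028816 was at the limit of detection in the wild type. PR5 had less room to fall on this scale than PR1 but was not at that limit.

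PR genes can lie in clusters of related copies, and consecutive identifiers in this annotation mostly follow gene order along the chromosome, so genes with neighbouring identifier numbers were examined as well. These genes played no part in the choice of the 4 PR genes. Within 10 numbers on either side the tables hold 47 other identifiers, of which 32 were tested. The fit called 11 of the 32 higher in the knockout and 3 lower, or 43.8%, beside 31.2% of all tested genes. The higher calls alone were 34.4% of the neighbours, beside 15.2% of all tested genes. Of the 11, 5 had less than 1 FPKM in every wild-type library and so passed the filter through the knockout libraries alone, as did 881 of the 3531 higher calls among all genes. Of all 949 tested genes that passed in this way 881 were called higher, so the filter itself favours such calls and the counts are no measure of how the neighbours changed. The median difference was 0.02 among the neighbours and 0.02 among all tested genes, so the middle of the neighbours lay near 0. Around PR1 the fit called 4 of 8 tested neighbours higher and 1 lower, around PR5 3 of 9 higher and 1 lower, and around the PR10 genes 4 of 15 higher and 1 lower. With single libraries left out, the count of called neighbours changed, and so did the share of all genes called. Without wild-type replicate 1, 8 neighbours (25.0%) were called, beside 19.97% of all genes. The values were 9 (28.1%) without wild-type replicate 2, beside 22.0%, and 14 (43.8%) without wild-type replicate 3, beside 37.1%. Without knockout replicate 1 they were 11 (34.4%), beside 20.02%, and without knockout replicate 2 also 11 (34.4%), beside 29.6%. Without knockout replicate 3 they were 8 (25.0%), beside 18.1%. The lower counts are therefore not particular to the neighbours.

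The identifiers directly below PR5 and directly below the PR10 genes were singled out after their values had been seen. The identifier numbered 1 below PR5 had 132, 523 and 141 FPKM in knockout replicates 1, 2 and 3, against 0.133, 0.122 and 0.139 FPKM in wild-type replicates 1, 2 and 3. The wild-type values are 1 read in each library, so this gene was at the limit of detection in the wild type and abundant in every knockout library. It passed the filter through the knockout libraries alone, so its difference is given without a test. On the log2 scale the difference was 7.57 ± 0.53 (SE), and over all 18 settings run it ranged from 5.42 with a pseudocount of 5 to 10.11 with voom on worked-back reads. Without knockout replicate 2 it was 6.92. Its 7062 knockout reads against 3 wild-type reads correspond to a scaled ratio of 1903 (95% exact binomial interval 651 to 9232, counting error only). The length behind its FPKM was 534 bases, near the 525 bases of PR5.

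The identifier numbered 1 below the PR10 genes had 342, 684 and 347 FPKM in knockout replicates 1, 2 and 3, against 32.7, 31.6 and 3.42 FPKM in wild-type replicates 1, 2 and 3. It was therefore high in knockout replicate 2 and low in wild-type replicate 3, in the same libraries as Zm00001d028815. It rose by 4.68 ± 0.83 on the log2 scale (SE, limma adjusted p = 0.0079). Every knockout library lay above every wild-type library, as in 25.0% of all tested genes. Over the 18 settings its log2 difference ranged from 3.38 to 5.18. Its limma adjusted p ranged from 4.7e-05, without both libraries that lay apart, to 0.030. The gene was picked after its values were seen, so these p-values only describe it. The difference was 3.71 ± 0.35 without wild-type replicate 3, and the lowest value, 3.38 ± 0.11, was that without knockout replicate 2 as well (n = 2 each). The smaller SE again follows from leaving out libraries that lay apart. Its length of 888 bases lay between the 886 bases of Zm00001d028815 and the 899 bases of Zm00001d028816. The next tested identifier on the other side, 2 numbers above Zm00001d028816, had 10.4 ± 0.84 FPKM in the knockout and 10.7 ± 0.83 FPKM in the wild type (SD, n = 3 each), a log2 difference of -0.05 ± 0.14 (SE, limma adjusted p = 0.83). The nearest identifiers on both sides of PR1 and the one directly above PR5 were listed at 0 in all 6 libraries. Neither the names of these neighbours nor their sequences are in the tables, and overlap or shared reads with the PR genes was not tested.

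**Figure D5:**
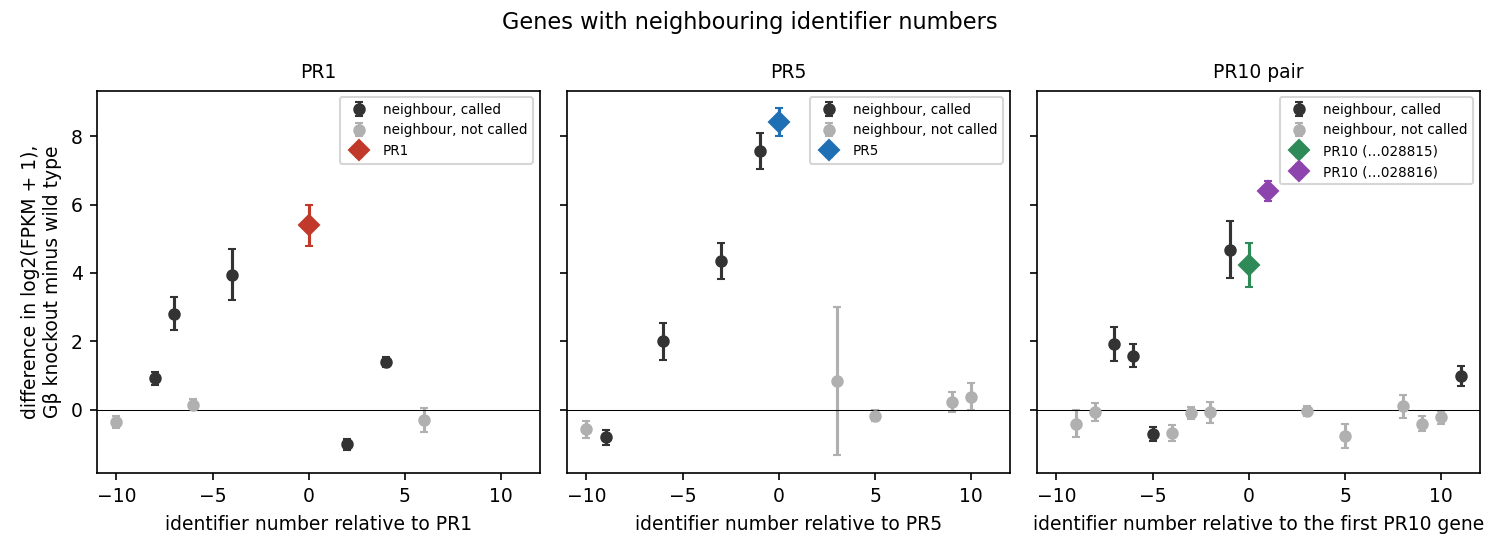
Difference in log2(FPKM + 1), knockout minus wild type, with its SE, for tested genes within 10 identifier numbers of PR1, PR5 and the PR10 genes (diamonds), with called neighbours dark and others grey; the x axis counts identifier numbers. The neighbours directly below PR5 (7.57) and below the PR10 genes (4.68) are the highest of the neighbours, followed by those 3 numbers below PR5 (4.36) and 4 below PR1 (3.95).

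The genes whose pattern over the 6 libraries was most like that of the 4 PR genes were found by the root mean square distance between centred log2(FPKM + 1) profiles, with the mean profile of the 4 genes as the target. Among 23228 other tested genes the closest was Zm00001d014134, at a distance of 0.19, where the median gene was at 3.10. It had 68.8, 136 and 69.1 FPKM in knockout replicates 1, 2 and 3, against 0.334, 0.691 and 0.131 FPKM in wild-type replicates 1, 2 and 3. The next was Zm00001d023769, at a distance of 0.30, with 48.3, 140 and 74.6 FPKM in knockout replicates 1, 2 and 3, and listed at 0 in all 3 wild-type libraries. Both were chosen for their likeness over these same libraries, and both passed the filter through the knockout libraries alone, so what they share with the PR genes follows from the choice. The PR genes themselves lay at 0.37 (Zm00001d028816), 0.45 (PR1), 1.02 (Zm00001d028815) and 1.20 (PR5) from their own mean profile, so these 2 genes were nearer to that mean than any of the 4. The likeness depended on the scale. With a pseudocount of 5 they came at ranks 23 and 25.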

How the data were processed

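RNA levels of 3 Gβ knockout and 3 wild-type libraries were analysed, with groups and replicate numbers taken from the sample titles. The authors deposited FPKM values per gene and library. The unit is inferred from the values and from TopHat2, Cufflinks and Cuffdiff (build B73 RefGen_v4), named in the submitters' processing notes. Versions, annotation, filters and strandedness are not given in those notes or the labels. After a factor for each library, the deposited FPKM of all 31946 genes above 0 were whole multiples of a common constant divided by a whole-number length of at least 60 (within 0.002 of a read, plus a small term for large counts). Genes read in few libraries meet this easily. Reads worked back this way give the depth; a gene whose reads and length share a factor comes out with too few reads. Intervals and the floor of 3 reads cover counting error only.

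The 23232 genes that reached 1 FPKM in 3 or more of 6 libraries were compared after log2(FPKM + 1) transformation. The model was fitted in R 4.3.3 by limma 3.58.1, whose empirical Bayes step used the trend and robust options. Two-sided p-values were adjusted over all tested genes (Benjamini-Hochberg), with calls at an adjusted p below 0.05, and the script was tested on simulated data. The simulated counts had the same variation between replicates for all genes and no library that lay apart. That test therefore does not cover the spread between the replicates here. Other steps used scipy 1.17.1, pandas 2.3.3 and numpy 2.4.6 under Python 3.11.15. Single-value exact permutation tests were not used, since 3 against 3 gives no p below 0.1. The genes, neighbour windows and alternatives were chosen with earlier results of these data known. The rule for named genes was the 4 PR genes and, with identifiers not paired with names, the 2 genes nearest in profile; the neighbours directly below PR5 and the PR10 genes were added after their values were seen. Lists of other defence genes and tissue markers by product name were not built, because the identifiers are not paired with names. No 2 replicates of a genotype agreed within sampling noise (mean chi-square per gene 11.04 to 150.3). Nothing says whether they came from separate plants or pools, so the spread may be partly technical.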

Additional observations from a re-analysis of the deposited data

How the results depend on the processing

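The log2 differences of the 4 PR genes stayed positive under all 17 alternatives, which the separation of their groups makes likely whatever the setting. They ranged from 4.37 to 5.73 for PR1, 7.32 to 8.89 for PR5, 3.13 to 4.55 for Zm00001d028815 and 4.27 to 9.54 for Zm00001d028816. The shifts beyond the spread between replicates were 4.37 (PR1) and 3.13 (Zm00001d028815) without wild-type replicate 3 and knockout replicate 2 together, 7.32 (PR5) and 4.27 (Zm00001d028816) with a pseudocount of 5, and, for Zm00001d028816, 8.85 with a pseudocount of 0.1 and 9.54 with voom on worked-back reads; a pseudocount changes the folds of genes with few wild-type reads by construction. With each library left out in turn the differences were 4.86 to 5.73 for PR1, 7.95 to 8.67 for PR5, 3.61 to 4.55 for Zm00001d028815 and 6.07 to 6.63 for Zm00001d028816.

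Of all genes 7238 were called, 3531 higher and 3707 lower in the knockout. Each library left out in turn, the calls numbered 4212 to 8614 (2021 to 4197 higher, 2191 to 4417 lower). Leaving out both libraries that lay apart gave 11952 (5894 and 6058), but these were chosen for their departure, which in itself lowers the spread. The cause of these changes was not tested. An adjusted p below 0.01 left 3495 (1656 and 1839), and a mean of at least 5 FPKM left 5141 (2105 and 3036) of 16513 tested genes, so that 40.9% of the calls were higher, against 48.8%; the cause of that shift was not tested. With a replicate block 4579 were called (2171 higher, 2408 lower). Same-numbered libraries departed from their group means with correlations of 0.15, -0.37 and -0.20 across genes. Of the 3 knockout libraries 0 correlated most with the wild-type library of the same number, so the numbers gave no sign of pairs. Each correlated most with a different wild-type library. The values were 0.47 (knockout replicate 1 with wild-type replicate 2), 0.37 (2 with 3) and 0.28 (3 with 1). This check can neither show nor exclude pairs, because departures of 3 libraries from their own mean depend on each other. The labels give no harvest time or preparation batch. Of the 32 tested neighbours 14 were called, and 9 with the block (28.1%, beside 19.7% of all genes). At a mean of at least 5 FPKM 9 of 22 were called (40.9%, beside 31.1% of all genes). The count was 8 to 14 with each library left out. Within 5 numbers 7 of 14 tested neighbours were called, and within 20 numbers 26 of 59. Of the 2 genes nearest in profile, 1 was among the nearest 2 after quantile normalization and 0 with a pseudocount of 5. Counts of a few reads limit the wild-type levels of Zm00001d028816.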

Other observations

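The spread of the PR genes between replicates, measured as the SD of log2(FPKM + 1) over 3 libraries, was large in the knockout. It was 0.94 for PR1, 0.81 for PR5, 0.84 for Zm00001d028815 and 0.58 for Zm00001d028816, beside a median of 0.23 over all tested genes. In the wild type PR1 (0.85) and Zm00001d028815 (1.08) also lay above the median of 0.28, and PR5 (0.24) and Zm00001d028816 (0.16) lay below it. On this scale genes near 0 FPKM can hardly vary, which applies to Zm00001d028816 in the wild type. PR5, at 1.89 to 2.96 FPKM there, had less room than PR1 but was not at the limit of detection. Relative to mean FPKM, the wild-type SD was also smaller for PR5 (22.3%) than for PR1 (50.1%) and Zm00001d028815 (60.6%). Zm00001d028816 was left out of this comparison because its wild-type levels rest on a few reads. The lengths behind the FPKM values of PR1 (492 bases) and PR5 (525 bases) were multiples of 3, and those of the PR10 genes (886 and 899 bases) were not.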
